A study of Homo sapiens with 6 samples.

Results

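The OAS family in these data comprised 4 genes, OAS1, OAS2, OAS3 and OASL, of the 20036 genes in the deposited expression table. They were chosen by gene name with their values in all 3 groups known, so every difference between groups is given for them as a description, and nothing is read from their calls. KGN, an established human granulosa cell tumour line, was transfected with a control siRNA (siNC) or with 1 of 2 siRNAs labelled siOGT1 and siOGT2 against OGT, the enzyme that attaches O-linked N-acetylglucosamine to nuclear and cytoplasmic proteins. RNA was collected 48 h after transfection with Lipofectamine 3000, and each group had 2 libraries (6 in all). Every library, siNC included, was therefore from transfected cells, and no untransfected library was analysed here. The siRNA sequences were not given in the sources used here, nor whether the 2 libraries of a group came from separate cultures, so the p-values below measure only the spread between these libraries, which may be technical.

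As background, OAS1, OAS2 and OAS3 are enzymes that bind double-stranded RNA and then join ATP into short chains of adenylate with an unusual linkage, called 2-5A. The 2-5A chains act as a second messenger of the antiviral response. OASL has the same fold and lacks this enzymatic activity, carries ubiquitin-like domains, and is known to enhance signalling by the RNA sensor RIG-I. All 4 genes are known as interferon-stimulated genes: type I interferon activates a transcription factor complex that includes STAT2 and IRF9 and binds a promoter sequence called the interferon-stimulated response element (ISRE).

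OGT itself was measured at 22.4 and 23.4 FPKM (reads per gene scaled by gene length and library size) in siNC, at 13.8 and 12.9 in siOGT1, and at 14.3 and 14.7 in siOGT2. It fell by 0.74 on the log2(FPKM + 1) scale with siOGT1 and by 0.63 with siOGT2 (adjusted p = 9.3e-06 and 8.88e-06, limma), so the knockdown was partial with either siRNA. The 2 siRNA groups differed in OGT by 0.11 (95% interval 0.01 to 0.21, adjusted p = 0.123, limma); this difference passed the threshold in the voom fit on recovered reads (0.12, adjusted p = 0.0348). The library totals recovered from the FPKM values lay between 16756649 and 21416489 reads. Of 13 granulosa cell markers 7 averaged at least 1 FPKM. The summed level of all 13 was 43.8 to 45.2 FPKM in siNC, 47.1 to 49.4 in siOGT1 and 46.8 to 47.7 in siOGT2. NR5A1 alone was at 18.15 to 20.5 FPKM. FSHR was at 0 in every library, CYP19A1 reached at most 0.011 FPKM and AMHR2 at most 0.027. INHA, CYP11A1 and WT1 averaged 0.221, 0.169 and 0.161 FPKM over the 6 libraries. The 5 leukocyte markers summed to 0.794 and 0.866 FPKM in siNC, 0.606 and 0.580 in siOGT1 and 0.672 and 0.475 in siOGT2, with LYZ at 0 throughout. The 3 endothelial and 2 epithelial markers each summed to at most 1.10 FPKM in any library.

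OAS1, OAS3 and OAS2 lie side by side on chromosome 12 (GRCh38, GENCODE release 29), in that order and all on the plus strand. OAS1 (ENSG00000089127) spans 112906777 to 112933222, OAS3 (ENSG00000111331) spans 112938352 to 112973249, and OAS2 (ENSG00000111335) spans 112978395 to 113011723. The cluster covers 104.9 kb. OASL (ENSG00000135114) lies 8.01 Mb further along the chromosome, at 121019111 to 121039242 on the minus strand. The principal transcripts have 6 exons in OAS1, 16 in OAS3, 11 in OAS2 and 6 in OASL. An antisense gene, AC004551.1 (112907628 to 113017751, minus strand), overlaps the whole or part of OAS1, OAS3 and OAS2. It was not in the table, and the strandedness of the counting was not given in the sources used here, so reads from it cannot be told apart from those of the 3 genes.

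The promoter sequences of OAS1 and OAS3, from 250 bases before to 50 bases after the start site, are shown because members of the cluster moved together and these are the stretches in which interferon response motifs were searched. They are from RefSeq (GRCh38.p14); of the 4 members these 2 were matched, and OAS2 and OASL were not in the table used. Capitals mark matches on either strand to the ISRE letters GAAANNGAAA or to the shorter core AANNGAAA bound by interferon regulatory factors. The OAS1 window is chr12:112906712-112907011 and the OAS3 window chr12:112938224-112938523, both on the plus strand.
OAS1: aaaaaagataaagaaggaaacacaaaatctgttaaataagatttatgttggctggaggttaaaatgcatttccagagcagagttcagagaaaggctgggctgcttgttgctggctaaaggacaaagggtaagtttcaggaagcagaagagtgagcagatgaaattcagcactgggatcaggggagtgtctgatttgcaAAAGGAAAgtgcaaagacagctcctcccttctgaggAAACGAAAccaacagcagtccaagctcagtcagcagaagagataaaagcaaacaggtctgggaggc
OAS3: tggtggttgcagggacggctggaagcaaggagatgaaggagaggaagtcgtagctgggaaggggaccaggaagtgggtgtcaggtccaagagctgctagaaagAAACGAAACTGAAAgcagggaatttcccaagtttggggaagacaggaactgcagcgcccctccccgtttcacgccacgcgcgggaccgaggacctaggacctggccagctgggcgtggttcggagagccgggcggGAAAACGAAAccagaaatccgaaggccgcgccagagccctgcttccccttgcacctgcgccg
The OAS3 window held the ISRE letters at 2 places, starting 143 and 12 bases before the start site, with the core letters overlapping each. In the OAS1 window the core letters occurred 52 and 16 bases before the start site. The ISRE letters, which require exactly 2 bases between the GAAA repeats, were not in this window. At the match 16 bases before the start site the GAAA repeats lie closer together, a spacing that these letters cannot match. The search therefore does not show that OAS1 lacks an ISRE. Among 27305 RefSeq promoter windows of this length, 3.648% held the ISRE letters and 23.175% the core letters. A match is a run of letters and not a measured binding site. Positions here are counted from the RefSeq start sites, which lie downstream of the GENCODE gene starts given above. By the GENCODE starts, both OAS1 matches and the OAS3 match at 12 bases fall inside the genes.

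In every library of both knockdown groups, all 4 genes stood below both siNC libraries, and siOGT2 stood below siOGT1. Of the 10547 genes tested, 7.19% showed this full order without overlap; 21.3% had both siOGT1 libraries below both siNC libraries, and 25.1% had both siOGT2 libraries below them. OASL, the member without enzymatic activity, had the largest differences of the 4, and OAS2 the smallest in both comparisons with siNC. In bulk RNA, fewer cells expressing a gene and less RNA per cell cannot be told apart.

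OASL was measured at 85.9 and 76.5 FPKM in siNC, at 37.6 and 32.7 in siOGT1, and at 19.0 and 15.7 in siOGT2. The 3 groups did not overlap, and the highest siOGT2 library was below the lowest siOGT1 library. The siOGT1 mean was 43.3% of the siNC mean and the siOGT2 mean 21.3%.

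OAS1, the smallest of the 3 synthetases, was measured at 34.7 and 33.0 FPKM in siNC, at 22.4 and 18.9 in siOGT1, and at 12.5 and 11.8 in siOGT2. Again no group overlapped another, and the siOGT1 libraries lay farthest apart. Group means were 61.0% and 35.7% of siNC with siOGT1 and siOGT2.

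OAS2, which carries a pair of synthetase units, was measured at 106.9 and 101.8 FPKM in siNC, at 76.4 and 68.1 in siOGT1, and at 48.4 and 44.3 in siOGT2. It kept the largest share of its control level among the members, with means of 69.2% of siNC for siOGT1 and 44.4% for siOGT2.

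OAS3, the longest synthetase, was measured at 61.5 and 59.3 FPKM in siNC, at 41.3 and 37.0 in siOGT1, and at 26.3 and 24.2 in siOGT2. Its means were 64.8% and 41.9% of siNC, between those of OAS1 and OAS2. In each group the library numbered 1 had the higher value for all 4 genes, an arrangement also found for 1157 of the 10547 genes tested (11%).

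**Figure D1:**
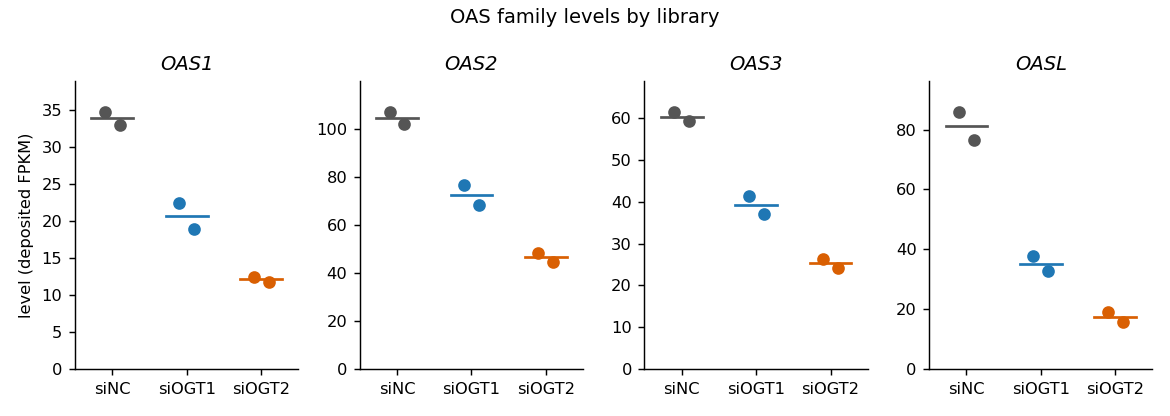
Level (FPKM, axis from 0) of OAS1, OAS2, OAS3 and OASL in each of the 6 libraries, with 1 panel per gene, points for libraries and a line for each group mean (n = 2). In every panel the siNC points are highest and the siOGT2 points lowest, with no overlap between groups.

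The fall of each gene was then set against all 10547 genes with a mean of at least 1 FPKM. With siOGT1 the difference from siNC on the log2(FPKM + 1) scale was -1.19 for OASL (SE 0.0900), -0.69 for OAS1 (SE 0.0671), -0.61 for OAS3 (SE 0.0547) and -0.53 for OAS2 (SE 0.0572). With siOGT2 these differences were -2.17, -1.41, -1.23 and -1.15 in the same order of genes. The median over the 4 members was -0.652 with siOGT1 and -1.32 with siOGT2, beside medians over all genes of 0.0318 and 0.0453. Ranked by fall, OASL was number 11 of the 10547 genes with siOGT1 and number 4 with siOGT2, and OAS2, the member with the smallest fall, was number 154 and number 42. All 4 members were called lower in each comparison (limma, adjusted p under 0.05), where 8.1% of all genes were called lower and 9.51% higher with siOGT1, and 13.4% lower and 22.1% higher with siOGT2. The members were chosen with these values known, so nothing is read from those counts, and the 2 comparisons share the same siNC libraries.

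The balance of calls over all genes moved with the scaling. With siOGT1 854 genes were lower and 1003 higher, against 1014 lower and 546 higher after scaling by a trimmed mean of log ratios. With siOGT2 1411 were lower and 2329 higher, against 1868 and 1363. The total with siOGT1 (1857) was 945 without siNC replicate 1, 984 without siNC replicate 2 and 1197 without siOGT1 replicate 2. With siOGT2 the total (3740) was 2327 without siNC replicate 1, 2223 without siNC replicate 2 and 2222 without siOGT2 replicate 2.

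The 2 siRNAs left the family at different measured levels, given here as a description because the values of both groups were known when the genes were chosen. OASL differed between siOGT2 and siOGT1 by a log2 difference of -0.98 (95% interval of the fit -1.19 to -0.78). For OAS1 the difference was -0.72 (-0.87 to -0.57), for OAS2 -0.63 (-0.76 to -0.50) and for OAS3 -0.61 (-0.73 to -0.49). Both siOGT2 libraries were below both siOGT1 libraries for each gene, as they were for 27.7% of all genes tested. Over all genes, 8.35% were called lower in siOGT2 than in siOGT1 and 8.24% higher, beside 4 of 4 members lower, and the medians were 0.00655 over all genes and -0.675 over the members. The total of genes called in this comparison (1750) was 1068 without siOGT2 replicate 1 and 816 without siOGT2 replicate 2. OGT RNA was not lower in siOGT2 (means 14.5 and 13.3 FPKM in siOGT2 and siOGT1). OGT protein was not measured here, and the cause of the difference between the siRNAs was not tested.

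**Figure D2:**
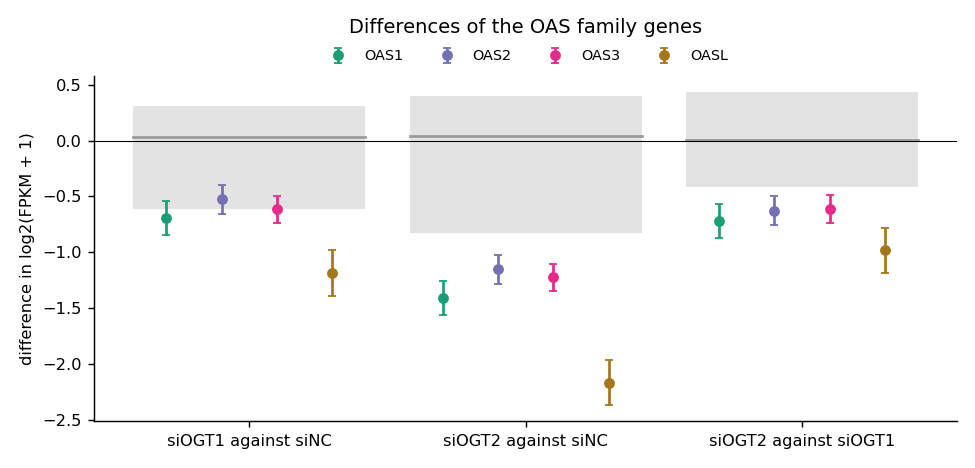
Log2 difference (log2 of FPKM + 1) of the 4 genes in 3 comparisons, points with 95% intervals from the fit, over a grey band from the 1st to the 99th percentile of all 10547 genes tested and a grey line at their median. OASL lies farthest to the lower side in each comparison, at -1.19, -2.17 and -0.98.

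The members did not change in equal proportion. Relative to OAS2 in the same library, the log2 ratio of OASL was -0.32 and -0.41 in siNC, -1.02 and -1.06 in siOGT1, and -1.35 and -1.50 in siOGT2. That ratio was thus highest in siNC and lowest in siOGT2, with no overlap. The log2 ratio of OAS1 to OAS2 was -1.62 and -1.63, then -1.77 and -1.85, then -1.96 and -1.92 in the same order of groups. The ratio of OAS3 to OAS2 differed less, at -0.80 and -0.78 in siNC, -0.89 and -0.88 in siOGT1 and -0.88 and -0.87 in siOGT2. These ratios use FPKM values that were known when the genes were chosen, and they were not tested. Across the 6 libraries the log levels of any 2 members correlated with r from 0.994 to 0.999, a description over libraries that share the same 3 groups.

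**Figure D3:**
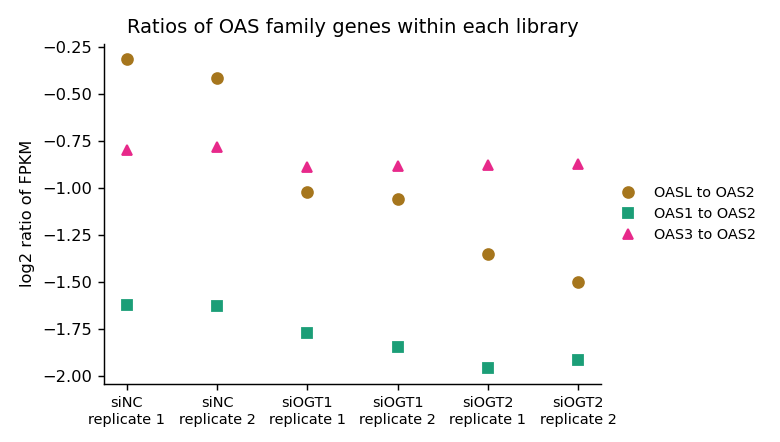
Log2 ratio of the FPKM of OASL, OAS1 and OAS3 to that of OAS2 in each of the 6 libraries. The OASL ratio runs from -0.32 in a siNC library to -1.50 in a siOGT2 library, and the OAS3 ratio stays between -0.89 and -0.78.

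The order of the 4 genes within siNC depended on the gene length used. On the deposited FPKM scale OAS2 was highest (104 ± 3.62, SD, n = 2), followed by OASL (81.2 ± 6.68), OAS3 (60.4 ± 1.58) and OAS1 (33.9 ± 1.25), and neighbours in that order did not overlap. The deposited values imply a length of 13021 bases for OAS1, 7.732 times its principal transcript of 1684 bases, and of 6319 bases for OASL, 1.935 times its principal transcript of 3266 bases. For OAS2 and OAS3 the implied lengths were 3.109 and 2.686 times the principal transcript. With the same reads divided by the principal transcript length, OAS2 stood at 325 ± 11.3 FPKM, OAS1 at 262 ± 9.69, OAS3 at 162 ± 4.25 and OASL at 157 ± 12.9 in siNC, and OAS3 and OASL overlapped. Reads outside the principal transcript are still counted there, so neither scale gives an exact level between genes. Differences of 1 gene between groups do not use its length in this way. This second scale was added after the data were seen.

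**Figure D4:**
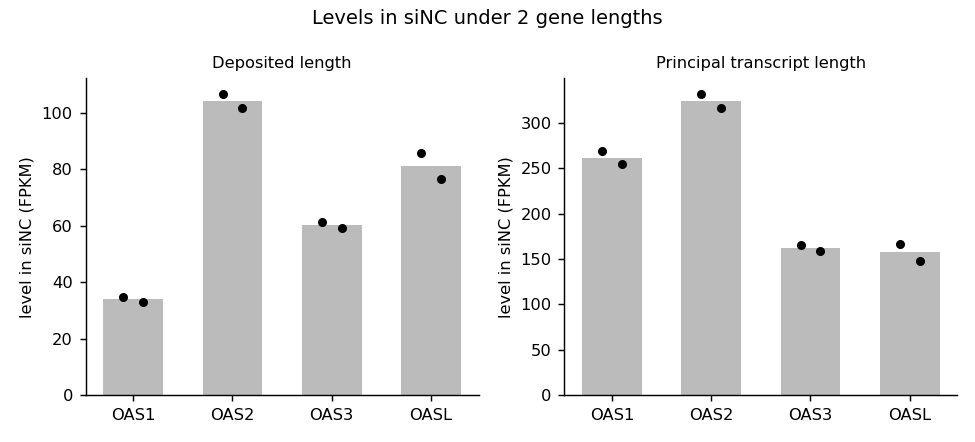
Level of the 4 genes in siNC as FPKM with the length implied by the deposited values and with the principal transcript length; bars are means from 0 and points the 2 libraries. OAS1 is lowest on the deposited scale (33.9) and the second highest with the principal transcript (262).

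The next genes act on 2-5A or in its pathway. PDE12, a phosphodiesterase that degrades 2-5A, was not called in any comparison and reached at most 12.8 FPKM in any library, with differences of -0.03 and -0.05 from siNC. ABCE1, a ribosome recycling factor, was measured at 30.7 and 31.2 FPKM in siNC, 31.6 and 32.4 in siOGT1 and 32.9 and 34.7 in siOGT2. It was higher with siOGT2 by 0.12 (adjusted p = 0.0257, limma). It was no longer called when siNC replicate 1 was left out (adjusted p = 0.125), nor without siNC replicate 2 (0.0781) or siOGT2 replicate 2 (0.166), nor after trimmed mean scaling (0.13). AKAP7, an anchoring protein with a domain that can cleave 2-5A, was at 2.41 and 2.25 FPKM in siNC, 1.18 and 1.17 in siOGT1 and 1.77 and 1.75 in siOGT2. It fell with siOGT1 (-0.61, adjusted p = 0.000211, limma) and with siOGT2 (-0.27, adjusted p = 0.0103, limma), and was higher in siOGT2 than in siOGT1 (0.34, adjusted p = 0.00643, limma), the reverse of the order of the OAS genes. The siOGT2 call ended without siNC replicate 1 (adjusted p = 0.0726) or siOGT2 replicate 2 (0.05). Of these 3 genes of the 2-5A pathway, 1 was lower and 0 higher with siOGT1, and 1 lower and 1 higher with siOGT2, with medians of -0.0313 and -0.0516. Among all genes tested, 8.1% were called lower and 9.51% higher with siOGT1, and 13.4% and 22.1% with siOGT2. The pathway list was chosen with earlier results of these data known, so nothing is read from its counts.

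Other sensors of double-stranded RNA and their adaptors formed the next list, of which 10 of 11 genes were tested and ZBP1 was below the minimum. With siOGT1 6 were lower and 0 higher (median -0.306), and with siOGT2 7 were lower and 1 higher (median -0.59). Between the siRNAs 6 were lower in siOGT2 and 0 higher (median -0.284). Shares of all genes called lower were 8.1% with siOGT1, 13.4% with siOGT2 and 8.35% for siOGT2 against siOGT1. The shares called higher were 9.51%, 22.1% and 8.24% in that order. This list was chosen with earlier results of these data known, so nothing is read from its counts. IFIH1, which encodes the long-RNA sensor MDA5, averaged 109 FPKM in siNC, 66.9 in siOGT1 and 42.4 in siOGT2 (log2 differences -0.70 and -1.34). DHX58, which encodes their regulator LGP2, averaged 24.7, 15.6 and 9.66 FPKM (-0.63 and -1.27). The endosomal receptor TLR3 averaged 25.6, 17.8 and 12.7 (-0.51 and -0.97), and the kinase PKR, encoded by EIF2AK2, averaged 70.2, 54.4 and 42.9 (-0.36 and -0.70). ADAR, an enzyme that edits adenosines in double-stranded RNA, had smaller falls (-0.25 and -0.48).

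RIGI, whose product OASL is known to assist, was much less abundant than the OAS genes, with means of 2.67, 1.77 and 0.968 FPKM. Its fall with siOGT1 (-0.41, adjusted p = 0.0169, limma) was not called without siNC replicate 1 (adjusted p = 0.0962), siNC replicate 2 (0.0778) or siOGT1 replicate 2 (0.0853, with a difference of -0.26). Its fall with siOGT2 was -0.90, and siOGT2 stood at -0.48 against siOGT1 (adjusted p = 0.00865, limma). The latter call was lost without siOGT2 replicate 2 (difference -0.44). At such low levels the log2(FPKM + 1) scale understates changes. The siOGT2 mean of RIGI was 36.3% of siNC, beside 38.9% for IFIH1. MAVS, the adaptor downstream of RIG-I and MDA5, was the 1 gene of this list called higher with siOGT2 (0.21, adjusted p = 0.0219, limma). That call ended without siNC replicate 1 (adjusted p = 0.132), without siOGT2 replicate 2 (0.129) and after trimmed mean scaling (0.0672). PRKRA, an activator of PKR, fell with siOGT2 (-0.36, adjusted p = 0.00258, limma). With siOGT1 PRKRA was not called (adjusted p = 0.058, limma) but was called without siOGT1 replicate 1 (0.025), after trimmed mean scaling (0.045), with a minimum of 5 FPKM (0.0452) and with voom (0.00102). TICAM1, the adaptor of TLR3, was not called with siOGT2 (-0.17, adjusted p = 0.0567, limma) but was called lower without siNC replicate 1 (-0.25, adjusted p = 0.0191) and after trimmed mean scaling (-0.21, adjusted p = 0.0272). TARBP2, a partner of Dicer, was not called with siOGT2 (0.22, adjusted p = 0.0508, limma) but was called higher without siNC replicate 1 (0.34, adjusted p = 0.0132) and with voom (0.28, adjusted p = 0.0265).

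Proteins that share the nucleotidyltransferase fold of the OAS enzymes were listed together with STING1, the adaptor of the related DNA sensor cGAS. Of 6 genes 5 were tested, and CGAS averaged 0.601, 0.672 and 0.614 FPKM, below the minimum. With siOGT1 2 of 5 were lower and 0 higher, with siOGT2 2 were lower and 0 higher, and the medians were -0.0563 and 0.041. The all-gene shares were 8.1% lower and 9.51% higher with siOGT1, and 13.4% and 22.1% with siOGT2. Nothing is read from these counts, since the list was chosen with earlier results known. The genes that fell were STING1 (-0.23 and -0.33) and MB21D2, a relative of cGAS (-0.20 and -0.37). With siOGT1 both calls were lost without single libraries: STING1 without siNC replicate 1 (adjusted p = 0.112), siNC replicate 2 (0.0689) or siOGT1 replicate 2 (0.114), and MB21D2 without any 1 of the 4 libraries compared (0.061 to 0.183). ILF2 was not called in any comparison, STRBP was called with siOGT2 by voom alone (0.21, adjusted p = 0.0395), and ZFR was higher in siOGT2 than in siOGT1 by 0.11 (adjusted p = 0.0428, limma), a call lost without any 1 of the 6 libraries (0.0582 to 0.172).

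Genes of type I interferon signalling came next, of which 9 of 11 were tested. IFNAR2 (means 0.125, 0.102 and 0.133 FPKM in siNC, siOGT1 and siOGT2) and SOCS1 (0.945, 0.715 and 0.307) were below the minimum. With siOGT1 5 were lower and 0 higher (median -0.328), and with siOGT2 5 were lower and 0 higher (median -0.266). Between the siRNAs 4 were lower in siOGT2 and 1 higher (median -0.0962). All-gene shares called lower were 8.1% with siOGT1, 13.4% with siOGT2 and 8.35% for siOGT2 against siOGT1. Those called higher were 9.51%, 22.1% and 8.24% in that order. As this list was also chosen with earlier results known, nothing is read from its counts. The transcription factor gene STAT2 (means 97.6, 77.7 and 60.4 FPKM in siNC, siOGT1 and siOGT2) fell with both siRNAs, with log2 differences of -0.33 and -0.68. The log2 differences with siOGT1 and siOGT2 were -0.61 and -1.26 for IRF7, -0.48 and -0.89 for IRF1, and -0.94 and -1.74 for USP18, a negative regulator at the interferon receptor. IRF9, the partner of STAT2, averaged 2.85, 2.43 and 2.21 FPKM. It fell with siOGT2 (-0.27, adjusted p = 0.0355, limma), a call lost without siNC replicate 1 (0.0809), siNC replicate 2 (0.165) or siOGT2 replicate 2 (0.223, with a difference of -0.16). JAK1, TYK2 and IRF3 were not called in any comparison by the limma fit on FPKM, and JAK1 was called higher with siOGT1 by voom (0.11, adjusted p = 0.0119).

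IFNAR1, a chain of the type I interferon receptor, differed in order from the OAS genes. It was measured at 5.82 and 5.76 FPKM in siNC, at 2.60 and 2.94 in siOGT1, and at 6.12 and 5.94 in siOGT2. Its level was low in siOGT1 and slightly above siNC in siOGT2. It fell with siOGT1 (-0.85, adjusted p = 1.63e-05, limma), was not called with siOGT2 (0.05, 95% interval -0.08 to 0.18, adjusted p = 0.527, limma), and was higher in siOGT2 than in siOGT1 (0.90, adjusted p = 1.94e-05, limma). All 4 OAS genes were lower in both groups.

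**Figure D5:**
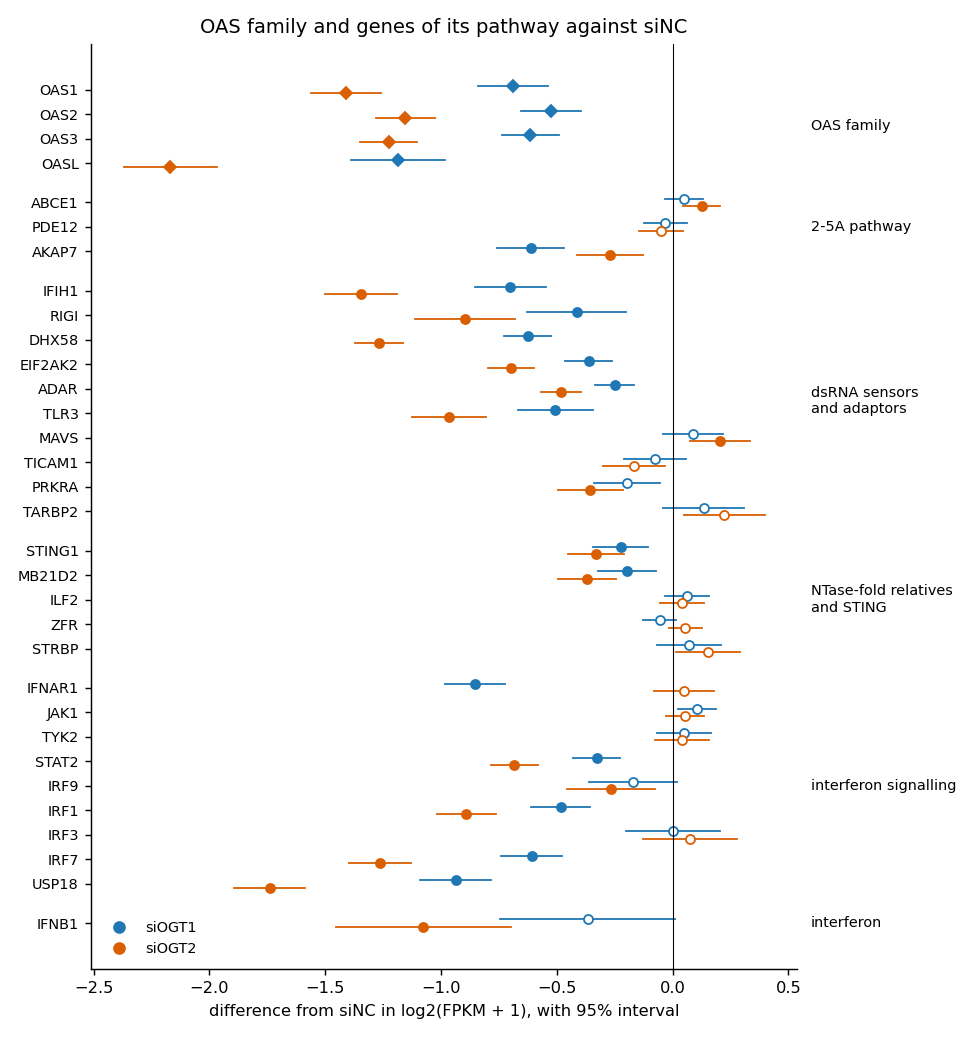
Log2 difference from siNC (log2 of FPKM + 1) with 95% intervals for the OAS genes (diamonds, shown without calls) and the listed pathway genes (circles, filled where the adjusted p was under 0.05), siOGT1 in blue and siOGT2 in orange. USP18 lies lowest of the circles with siOGT2 (-1.74), and IFNAR1 is lower with siOGT1 (-0.85) and near siNC with siOGT2 (0.05).

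Of 8 interferon genes 1 passed the minimum, IFNB1, which encodes interferon beta. It was measured at 2.60 and 2.49 FPKM in siNC, at 2.40 and 1.22 in siOGT1, and at 0.526 and 0.854 in siOGT2, from 44, 42, 37, 22, 8 and 12 reads in that order. The siOGT1 libraries lay far apart and the siOGT2 libraries were the lowest. IFNB1 fell with siOGT2 (-1.08, adjusted p = 0.00138, limma). With siOGT1 it was not called (-0.37, adjusted p = 0.168, limma) but was called without siOGT1 replicate 1 (-0.67, adjusted p = 0.00705, limma). It was lower in siOGT2 than in siOGT1 (-0.71, adjusted p = 0.0199, limma), a call lost without siOGT1 replicate 1 (-0.40, adjusted p = 0.0629) or siOGT2 replicate 1 (-0.57, adjusted p = 0.124). IFNL1 was at 0.192, 0.128 and 0.0700 FPKM in siNC replicates 1 and 2 and siOGT1 replicate 1, and listed at 0 in the other libraries. IFNA1, IFNK and IFNG were listed at 0 in all 6.

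The genes on either side of the members on chromosome 12 were examined, up to 5 on each side of the cluster and of OASL. Of 19 genes 14 were tested. With siOGT1 1 was lower and 1 higher, and with siOGT2 1 was lower and 5 higher, with medians of 0.0442 and 0.0525. Over all genes 8.1% were lower and 9.51% higher with siOGT1, and 13.4% and 22.1% with siOGT2. With 14 genes tested, nothing is read from how the neighbours' counts compare with those shares. The gene that fell, TRAFD1, lies 753.2 kb from the cluster and averaged 26.0, 21.0 and 16.1 FPKM (-0.30 and -0.66). The closest neighbours of the cluster were at or near 0: RPH3A, 7.9 kb away, reached at most 0.014 FPKM and DTX1, 45 kb away, was at 0 in every library. Beside OASL, UNC119B was higher with both siRNAs (0.16 and 0.39), and its siOGT1 call ended without siNC replicate 1 (adjusted p = 0.0978) or siOGT1 replicate 2 (0.0616). RPL6 was higher with siOGT2 (0.24, adjusted p = 0.000608, limma). The siOGT2 calls of ACADS (0.24) and ANAPC5 (0.15) ended without any 1 of the 4 libraries compared (adjusted p 0.0579 to 0.115 and 0.077 to 0.103), and that of DDX54 (0.25) without siNC replicate 1 (0.0501), siNC replicate 2 (0.136) or siOGT2 replicate 2 (0.145, with a difference of 0.13).

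Among the 10 genes whose levels across the 6 libraries were most like the mean standardised profile of the 4 members, 9 are reported here: IFIT3, MX1, MX2, IFI16, CCDC194, TRIM22, IFIT2, CMPK2 and IFIH1, with r from 0.99913 to 0.99985. IFIT3, the closest, averaged 246 FPKM in siNC, 131 in siOGT1 and 69.9 in siOGT2. MX1, a dynamin-like GTPase, averaged 97.9, 62.8 and 40.1 FPKM. IFI16, a DNA sensor, averaged 175, 143 and 117, so a profile of the same shape came with a smaller change in level. Of the 10543 other genes tested, 94 had r of at least 0.99. Among these 9 genes, 6 were in the promoter table, and the ISRE letters were found in 3 of them (IFIT3, MX1 and IFIH1). The core letters were found in 4 (IFIT3, MX1, IFI16 and IFIH1). Over all promoter windows the shares were 3.648% and 23.175%. These genes were picked by their likeness to the members, so nothing is read from these counts.

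The 4 members together took 66637 and 62873 reads in siNC, 39241 and 40412 in siOGT1, and 23581 and 19900 in siOGT2. As a share of each library's reads this was 0.3307% and 0.3126%, then 0.2132% and 0.1887%, then 0.1301% and 0.1188%. The lowest count behind any member's value was 1659 reads, for OASL in siOGT2. The summed leukocyte markers, which were also lower in the knockdown groups, were under 1 FPKM in every library. Most of that sum was ITGAM (means 0.533, 0.495 and 0.356 FPKM in siNC, siOGT1 and siOGT2) and CD14 (0.241, 0.0448 and 0.120). PTPRC went the other way (0.0467, 0.0531 and 0.0758), CD3E was highest in siOGT2 (0.0216) and LYZ was at 0. The part of these markers in the result was not tested.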

How the data were processed

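Total RNA of 6 KGN libraries was measured by RNA sequencing. TRIzol was used for extraction and NEBNext Ultra II for library preparation, per the labels' protocols; per the submitters' processing notes, cutadapt 1.15, HISAT2 and the GRCh38 genome were used. For the counting program, its annotation and its strand setting, nothing was given in the sources used here. What the authors deposited was 1 table of FPKM values for 20036 Ensembl genes, of which 20011 matched a symbol, and 0 columns were left unmapped.

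Here, log2(FPKM + 1) was computed from the deposited FPKM and fitted with limma 3.58.1 (R 4.3.3; moderated variances with an intensity trend) over all 6 libraries, for 10547 genes with a mean of at least 1 FPKM. Tests were two-sided, and p-values were Benjamini-Hochberg adjusted over all genes with a threshold of 0.05. Because log2(FPKM + 1) was used, changes of low genes are understated. FPKM are whole multiples of the value of 1 read, and whole reads (within 0.01) were recovered for 100.0% of tested genes; the median tested gene had 759 to 970 reads per library. The voom fit on these reads called 2526, 4223 and 2282 genes for siOGT1 against siNC, siOGT2 against siNC and siOGT2 against siOGT1.

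The members and the gene lists were chosen with earlier results of these data known. The genes named were the 4 members, OGT, every gene of the lists (2-5A pathway, RNA sensors, fold relatives, interferon signalling, interferons), the 5 nearest genes in the table on each side, and the 10 genes most correlated with the members; some genes under this rule are not reported here and were left out of the list counts. Alternatives were other pseudocounts, filters and scalings, no intensity trend, a replicate block, only the groups compared, voom, and leaving out each library.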

Additional observations from a re-analysis of the deposited data

Results flagged for a closer look

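The effects of the 2 siRNAs against the same siNC libraries differed for 17 named genes outside the OAS family. The test was limma for siOGT2 against siOGT1, with p-values adjusted over all genes. In the same comparison 8.35% of all genes tested were called lower and 8.24% higher. The gene lists were chosen with earlier results of these data known, so nothing is read from this count. For the OAS genes, chosen with these values known, the log2 difference of siOGT2 from siOGT1 is a description: -0.72 for OAS1, -0.63 for OAS2, -0.61 for OAS3 and -0.98 for OASL.

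Of the 17 genes, 12 were lower in siOGT2. Among RNA sensors the difference was -0.64 for IFIH1, -0.48 for RIGI, -0.64 for DHX58, -0.34 for EIF2AK2, -0.23 for ADAR and -0.46 for TLR3. Among interferon signalling genes it was -0.36 for STAT2, -0.41 for IRF1, -0.65 for IRF7 and -0.80 for USP18. It was -0.71 for IFNB1 and -0.36 for TRAFD1.

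The other 5 were higher in siOGT2, by 0.90 for IFNAR1, 0.34 for AKAP7, 0.23 for UNC119B, 0.15 for RPL6 and 0.11 for ZFR. The adjusted p ran from 1.94e-05 for IFNAR1 to 0.0428 for ZFR (limma). The RPL6 call (adjusted p = 0.0127, limma) held in 11 of 16 alternatives. It was lost with no filter on low values (adjusted p = 0.0571, limma) and with no intensity trend (adjusted p = 0.0629, limma). The call was also lost without siOGT1 replicate 1 (difference 0.13), siOGT2 replicate 1 (0.14) or siOGT2 replicate 2 (0.16).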

How the results depend on the processing

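The calls of the OAS genes rest on values known when they were chosen, so their stability over the 16 alternatives is not read as support. For siOGT2 against siOGT1, the log2 difference ranged from -0.836 to -0.583 for OAS1, from -0.709 to -0.547 for OAS2, from -0.687 to -0.534 for OAS3 and from -1.11 to -0.848 for OASL. With no filter on low values, 1138 genes were called for siOGT1 against siNC and 1017 for siOGT2 against siOGT1; the cause was not tested. Leaving out 1 library at a time gave 945 to 1737 genes for siOGT1 against siNC, 2222 to 3749 for siOGT2 against siNC and 816 to 1533 for siOGT2 against siOGT1, with fewer samples in each fit. A group left with 1 library is assumed to vary like the others. Over the other named genes and all alternatives, 16, 31 and 21 calls were lost and 13, 8 and 11 gained in the 3 comparisons in that order, and none reversed.

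With the replicate number as a block, 1773, 3636 and 1674 genes were called, against 1857, 3740 and 1750 without it. Deviations of libraries with the same number correlated at -0.0218, -0.0262 and 0.0494 between groups, so little shared deviation was seen over all genes. These correlations cannot tell whether libraries with the same number were prepared together.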
